A study of Homo sapiens with 70 samples.

Results

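The shA1 short hairpin RNA lowers *HMGA1*, and the comparison described here asks whether the cells respond to it differently when they are growing and when they are in oncogene-induced senescence (OIS). It used the 32 libraries of IMR90 cells, of 70 samples in the series, that carry either shA1 or its vector, with 8 libraries in each of 4 groups. For each gene the shA1 effect in OIS (OIS-shA1 against OIS) was set against the shA1 effect in growing cells (Grow-shA1 against Grow), and the difference of these log2 fold changes is called the interaction. A positive interaction means that the gene stood higher, relative to its vector control, in OIS than in Grow. The libraries were chosen by their labels alone, and no measured value entered that choice.

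IMR90 is a line of fibroblasts from human fetal lung. All 4 groups carried pLNCX2 ER:HRAS G12V, an oncogenic *HRAS* fused to an oestrogen receptor domain that stays inactive until 4OHT is added. Grow and OIS cells also carried the empty pMSCV miR vector, and Grow-shA1 and OIS-shA1 cells the same vector with shHMGA1. Both OIS groups received 100 nM 4OHT for 6 days and both Grow groups stand for day 0 without it, so that time in culture and 4OHT itself cannot be told apart from RAS. A limit of the model is that 1 hairpin was used. The labels speak of biological replicates but give fewer per condition than the 8 libraries deposited, so some of the spread that the p-values measure may be technical. They name 2 library kits and 2 sequencers without tying them to libraries, so such a batch could not be fitted.

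*HMGA1* is a small chromatin protein that holds AT-rich DNA in its minor groove through AT-hooks and takes part in the heterochromatin foci of senescent fibroblasts. OIS is the lasting arrest that follows oncogenic RAS. The arrested cells secrete cytokines and proteases, the senescence-associated secretory phenotype (SASP), and make less extracellular matrix. A senescent secretory cell also leans on the endoplasmic reticulum (ER), where the unfolded protein response raises chaperones, and on the integrated stress response, in which *ATF4* switches on amino acid synthesis and transport.

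Total counts lay between 13904974 and 22136571 in 31 of the 32 libraries and at 1903607 in OIS replicate 4. Levels are CPM, that is counts scaled to a fixed library total, adjusted with TMM factors over all 32 libraries. *HMGA1* (ENSG00000137309, chromosome 6, 34204650 to 34214008 on hg19, the build of all gene positions below) fell by 3.79 on the log2 scale in Grow-shA1 and by 3.62 in OIS-shA1, with an interaction of 0.17 (SE 0.089, edgeR adjusted p = 0.172). All 12 fibroblast markers listed were detected, with a summed level of 59271 to 75314 CPM in Grow, 46312 to 55966 in Grow-shA1, 16402 to 19525 in OIS and 16911 to 19000.1 in OIS-shA1 libraries. Of 8 immune cell markers, 7 stayed under 1 CPM in each group, and CD3E and MS4A1 were at 0. The exception was CD68, with group means of 19.1 CPM in Grow, 22.3 in Grow-shA1, 52.3 in OIS and 46.4 in OIS-shA1. Of 6 endothelial markers 3 to 5, and of 9 epithelial markers 4 or 5, were under 1 CPM. The highest of these markers were well detected. In the same order of groups, endothelial TEK had means of 148, 191, 79.7 and 81.8 CPM. Epithelial KRT18 had 53.7, 40.7, 43.6 and 41.1, and KRT8 27.8, 14.8, 7.39 and 6.5. *HRAS* itself, whose reads can include the transgene, had 1529.5 to 1795 CPM (median 1579) in Grow, 1659.9 to 2214 (median 1825) in Grow-shA1, 1096 to 1735 (median 1515) in OIS and 1197 to 1397 (median 1252) in OIS-shA1 libraries. It rose with shA1 in Grow by 0.20 and fell in OIS by 0.21 on the log2 scale, with an interaction of -0.41 (SE 0.089, edgeR adjusted p = 0.000552). Its part in the results below was not tested.

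The shA1 effect depended on the state for a large share of the genes. Of the 13903 genes tested with edgeR's quasi-likelihood test, 3281 (23.6%) had an interaction at an adjusted p under 0.05, 1697 (12.2%) higher and 1584 (11.4%) lower. In OIS alone, 4849 genes (34.9%) changed with shA1, 2514 up (18.1%) and 2335 down (16.8%). In Grow, 3940 (28.3%) changed, 1945 up (14%) and 1995 down (14.3%). When TMM factors were left out and library sizes alone were used, 4344 genes had an interaction but the split was 888 higher and 3456 lower, since the median interaction of all genes moved from -0.01 to -0.13. Of the 3281 called interactions 2472 passed again there, and 0 changed sign. Which weak interactions pass, and the balance of their directions, therefore rest on the TMM scaling. Where the median or the balance of calls of a list turns with it, the values are given with that list.

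Most of these genes changed in 1 state only. Of the 3281, 1436 (10.3% of all genes tested) changed with shA1 in OIS and did not pass in Grow, 736 up and 700 down, and for 1139 of them the 95% interval of the Grow effect lay within 0.32 either way on the log2 scale. A further 872 genes (6.27%) changed in Grow only, 412 up and 460 down, and 652 of those had such a narrow interval around no change in OIS. In 407 genes (2.93%) shA1 had opposite effects, with 243 raised in OIS and lowered in Grow and 164 the reverse. The effect had the same sign but was larger in OIS in 156 genes and larger in Grow in 160, and 250 genes had an interaction without passing in either state. The interactions were mostly modest, with a median size of 0.36 on the log2 scale in the OIS only genes, 0.35 in the Grow only genes and 0.52 in the genes with opposite effects, against 0.17 over all genes tested. An interaction of at least 2-fold was reached by 306 genes, 110 of them OIS only, 87 Grow only and 58 opposite.

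**Figure D1:**
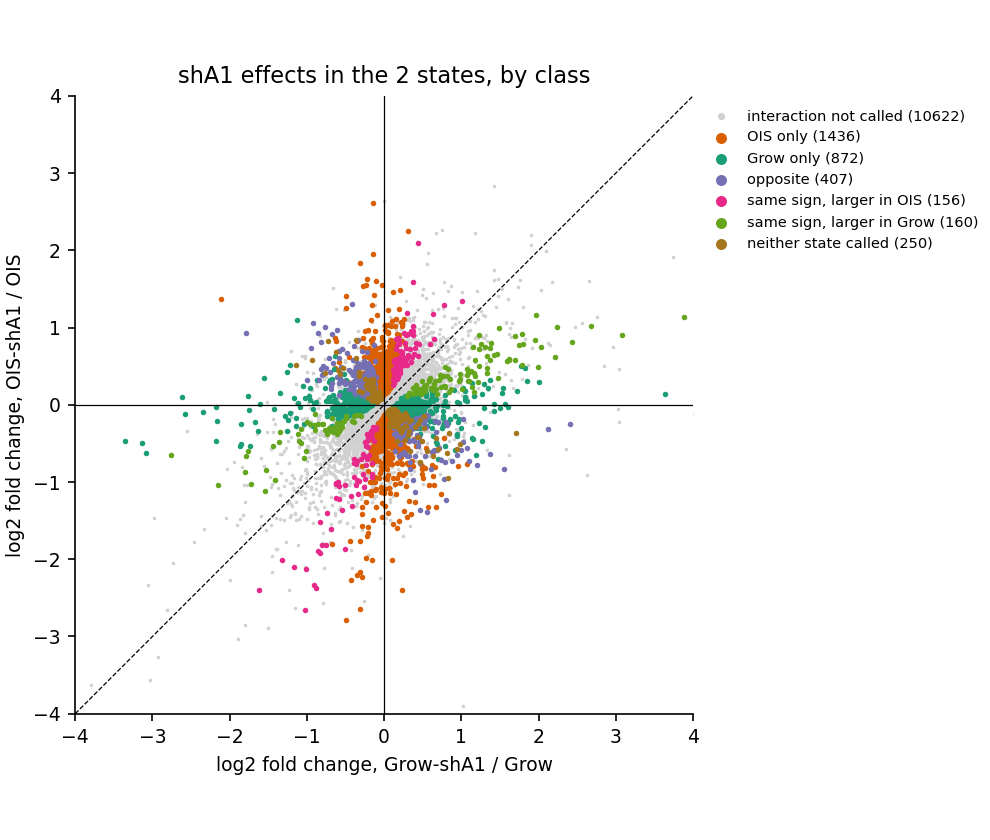
Each point is a gene, placed by its log2 fold change with shA1 in growing cells (x axis) and in OIS (y axis), with colours for the classes and grey for genes whose interaction was not called. Points on the dashed diagonal have equal effects in both states. The 1436 OIS only genes lie along the vertical axis, the 872 Grow only genes along the horizontal axis and the 407 opposite genes in the upper left and lower right corners of the plot. Axes end at 4, and 2 genes lie beyond them.

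Genes of the unfolded protein and integrated stress responses mostly stood higher with shA1, relative to the vector, in OIS than in Grow. Of 35 listed genes, all tested, 26 had a higher interaction and 2 a lower one, against 12.2% and 11.4% of all genes, and the median interaction was 0.45 where that of all genes was -0.01. In Grow, 22 of the 35 fell with shA1 and 6 rose, whereas in OIS 20 rose and 6 fell. In 12 members the effects were opposite, 11 of them up in OIS and down in Grow. These counts of 26 and 2 were the same whichever of the 32 libraries was left out, and became 25 and 3 with library sizes alone. This list and the others below were chosen with earlier results of these data known. Their counts therefore describe the lists and do not test them, and leaving out libraries does not address that choice. The named members below follow a fixed rule of size, and other members are named after their values were seen.

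*ATF4* (ENSG00000128272), the transcription factor at the centre of the integrated stress response, had 128 to 144 CPM (median 135) in Grow, 116 to 133 (median 122) in Grow-shA1, 62.2 to 73.9 (median 69) in OIS and 91.6 to 149 (median 109.7) in OIS-shA1 libraries. In OIS every shA1 library lay above every vector library, while the Grow groups overlapped and shA1 lay slightly lower. Its log2 fold change was -0.13 in Grow (SE 0.037) and 0.77 in OIS (SE 0.081), an interaction of 0.91 (SE 0.095, edgeR adjusted p = 1.57e-09). Genes that *ATF4* is known to drive changed to different degrees. The serine pathway enzymes *PHGDH*, *PSAT1* and *PSPH* make serine from a glycolysis intermediate, and the mitochondrial folate enzymes *MTHFD2* and *ALDH1L2* use the one-carbon units it yields. *PSPH* had effects of -0.27 in Grow and 0.49 in OIS, and *MTHFD2* of -0.61 and 0.36.

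*PSAT1* (ENSG00000135069, chromosome 9, 80912059 to 80945009) had 56.4 to 87.7 CPM (median 76.5) in Grow, 21.7 to 32.7 (median 24.7) in Grow-shA1, 16.6 to 30.2 (median 21.9) in OIS and 14 to 74.9 (median 19) in OIS-shA1 libraries. The Grow groups did not overlap, the OIS groups did, and OIS-shA1 replicate 7 stood far above the other 7. It fell in Grow by 1.56 and its OIS value was 0.35 (SE 0.25, edgeR adjusted p = 0.297), with an interaction of 1.90 (SE 0.29, edgeR adjusted p = 3.69e-06) that became 1.52 without that library. *ALDH1L2* (ENSG00000136010, chromosome 12, 105413568 to 105478355) had 75.3 to 106 CPM (median 99.1) in Grow, 43.1 to 60 (median 54.2) in Grow-shA1, 13.2 to 17.3 (median 13.8) in OIS and 19.6 to 57.2 (median 23.3) in OIS-shA1 libraries. Here both pairs of groups were apart, in opposite directions. *ALDH1L2* fell by 0.86 in Grow and rose by 0.93 in OIS, an interaction of 1.78 (SE 0.19, edgeR adjusted p = 2.42e-09), or 1.54 without OIS-shA1 replicate 7.

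*PHGDH* (ENSG00000092621, chromosome 1, 120202421 to 120286838) had 50.2 to 77 CPM (median 66.1) in Grow, 31.9 to 43.7 (median 37.2) in Grow-shA1, 9.3 to 14 (median 10.8) in OIS and 9.37 to 28.7 (median 13.2) in OIS-shA1 libraries. Every Grow-shA1 library lay below every Grow library and the OIS groups overlapped, with an interaction of 1.27 (SE 0.20, edgeR adjusted p = 6.83e-06). *ADM2* (ENSG00000128165, chromosome 22, 50919985 to 50924869), a peptide hormone of the calcitonin family named by the rule for opposite effects and not in the list, had 4.73 to 7.81 CPM (median 5.43) in Grow, 1.11 to 2.56 (median 1.56) in Grow-shA1, 1.46 to 5.1 (median 2.85) in OIS and 2.6 to 13.3 (median 4.69) in OIS-shA1 libraries. *ADM2* showed the same pattern as *PHGDH* at a low level, with effects of -1.78 in Grow and 0.93 in OIS. OIS-shA1 replicate 7 held the highest value of its group in 22 of the 35 listed genes, and what sets that library apart was not tested.

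The *ATF4* branch also holds 4 genes that make or carry amino acids and that fell in both states, unlike *PSPH*. The asparagine synthetase *ASNS* changed by -1.44 in Grow and -0.54 in OIS, the leucine carrier *SLC7A5* by -1.08 and -0.31, the cystine carrier *SLC7A11* by -1.10 and -0.47, and their partner chain *SLC3A2* by -0.64 and -0.32. These 4 genes thus fell with shA1 in OIS as well, though *ATF4* mRNA rose there, and each had a higher interaction because the fall in Grow was larger. The effector *DDIT3* (CHOP) did not pass, with an interaction of 0.22 (SE 0.14, edgeR adjusted p = 0.266). The 2 members with a lower interaction were *ATF3*, a stress-induced repressor, at -1.06, and the phosphatase subunit *PPP1R15A* at -0.24. *ATF3* ran against the list, rising by 0.40 in Grow and falling by 0.66 in OIS.

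*HSPA5* (ENSG00000044574), the ER chaperone BiP, had 1596 to 1721 CPM (median 1645) in Grow, 1309 to 1743 (median 1450.0) in Grow-shA1, 1123 to 1435 (median 1214) in OIS and 1436 to 1782 (median 1658) in OIS-shA1 libraries. Its OIS groups were apart and its Grow groups overlapped, with effects of -0.16 in Grow and 0.40 in OIS and an interaction of 0.56 (SE 0.076, edgeR adjusted p = 4.23e-07). *HSP90B1*, the ER paralog of HSP90, had an interaction of 0.70 and rose in OIS by 0.63. *CALR*, a lectin chaperone of the ER, rose by 0.41 in OIS and fell by 0.18 in Grow, though 11.5% of its exon bases are shared with an antisense gene and lie outside its counts. The kinase *ERN1* (IRE1) and the sensor *ATF6* had no called interaction, at 0.12 and 0.0022.

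Some of these chaperone genes share a promoter sequence. The ER stress response element (ERSE) has the letters CCAAT and CCACG with 9 bases of any kind between them, a CCAAT box and the site of *ATF6* at a fixed distance. It was searched on both strands from 250 bases before to 50 bases after the start site, in RefSeq promoters of GRCh38.p14, for the 10562 tested genes that have such a window. It was found in 14 of them (0.133%) and in 3 of 31 genes of the stress response list, and was chosen after the values of that list were seen. The stretches below show the motif in capitals with 5 bases on either side, written 5′ to 3′ on the strand of the gene, so that a motif on the opposite strand reads as its reverse complement. *HSP90B1* holds it on both strands, and *TRIM5* and *ZNF17* are shown because their interaction was not called. *HSPA5* lies on the minus strand at chr9:125241386-125241414, *XBP1* on the minus strand at chr22:28800598-28800626, *HSP90B1* on the plus strand at chr12:103930211-103930239 and chr12:103930316-103930344, and *CALR* on the plus strand at chr19:12938379-12938407. *SERP1* lies on the minus strand at chr3:150546705-150546733, *TRIM5* on the minus strand at chr11:5685110-5685138 and *ZNF17* on the plus strand at chr19:57410915-57410943.
HSPA5: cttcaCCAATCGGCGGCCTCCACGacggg
XBP1: gctggCCAATCGCGGAGGGCCACGaccgt
HSP90B1, first match: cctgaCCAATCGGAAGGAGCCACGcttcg
HSP90B1, second match: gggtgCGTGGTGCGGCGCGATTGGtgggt
CALR: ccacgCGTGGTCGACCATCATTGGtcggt
SERP1: tcatgCGTGGAGACAGCGAATTGGtgttt
TRIM5: ccctaCGTGGAGAAATGCCATTGGcccat
ZNF17: aaaagCCAATGAAGCCCCTCCACGtcctt

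Of the 14 genes with the element, 10 had a higher interaction and 0 a lower one (over all windows 13.1% and 11.9% of genes), while 4 did not pass (*ALG12*, *TMEM120A*, *TRIM5* and *ZNF17*). The 10 were *HSPA5*, *HSP90B1*, *XBP1*, *CALR*, *CANX*, *SERP1*, *EIF2A*, *CRELD2*, *ERO1B* and *FICD*. *EIF2A* and *SERP1* are divergent genes that share 1 match, as are *CRELD2* and *ALG12*, so the 14 genes hold fewer independent matches than their number. The count of 10 ranged from 9 to 10 with each library left out and fell to 6 higher and 1 lower with library sizes alone. *XBP1*, the transcription factor that IRE1 splices, had effects of -0.26 in Grow and 0.19 in OIS. *SERP1*, which steadies the translocon under stress, had -0.23 and 0.31, and *FICD*, which modifies BiP, -0.10 and 0.21. *CRELD2* was the member whose call came from Grow, falling there by 0.27 with an OIS value of 0.02. A match of letters is a description of the window and not a site in use.

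**Figure D2:**
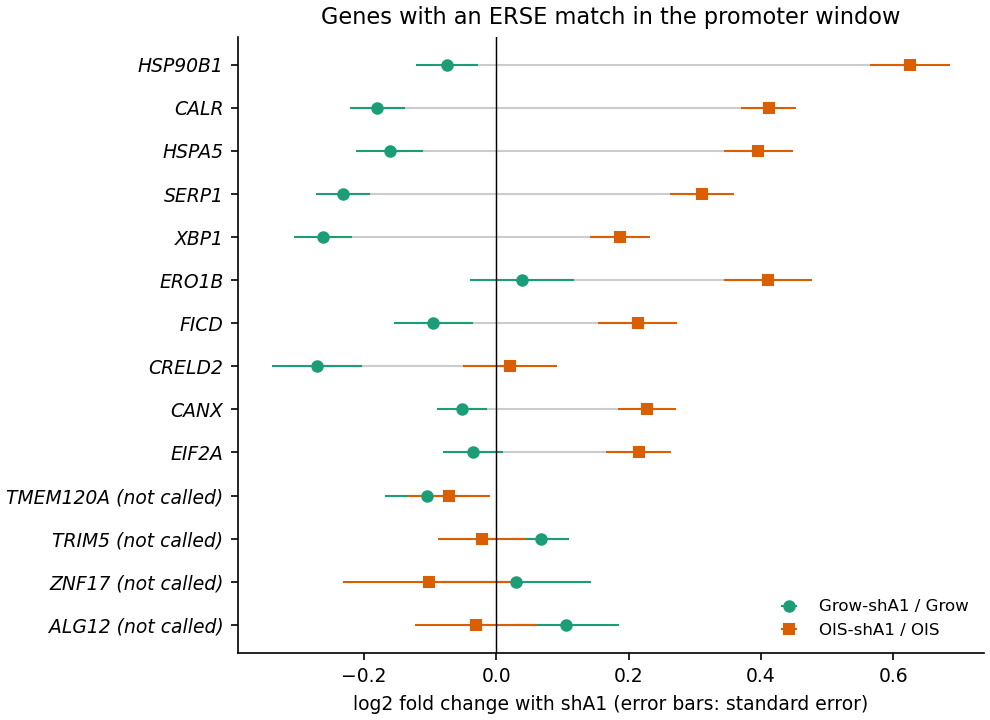
The 14 tested genes with an ERSE in the promoter window, each with its log2 fold change with shA1 in growing cells (circles) and in OIS (squares), error bars giving the standard error. The square lies to the right of the circle in all 10 called genes, and the labels mark the 4 that were not called. Of the 14, 6 are called higher and 1 lower with library sizes alone.

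The amino acid response element bound by *ATF4* was searched in the same way as TTGCATCA and TTTCATCA. It was found in 95 of the 10562 windows (0.899%), 22 of them genes with a higher (23.2%) and 13 with a lower interaction (13.7%). Over all windows these shares were 13.1% and 11.9%. Of the 31 list members 3 held the element. These were *ASNS*, *CHAC1* and *HERPUD1*, of which *CHAC1* did not pass. The match of *ASNS* is shown with 5 bases on either side, its capitals being the reverse complement of TTTCATCA, at chr7:97872464-97872481 on the minus strand of GRCh38.p14.
ASNS: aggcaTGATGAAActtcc

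**Figure D3:**
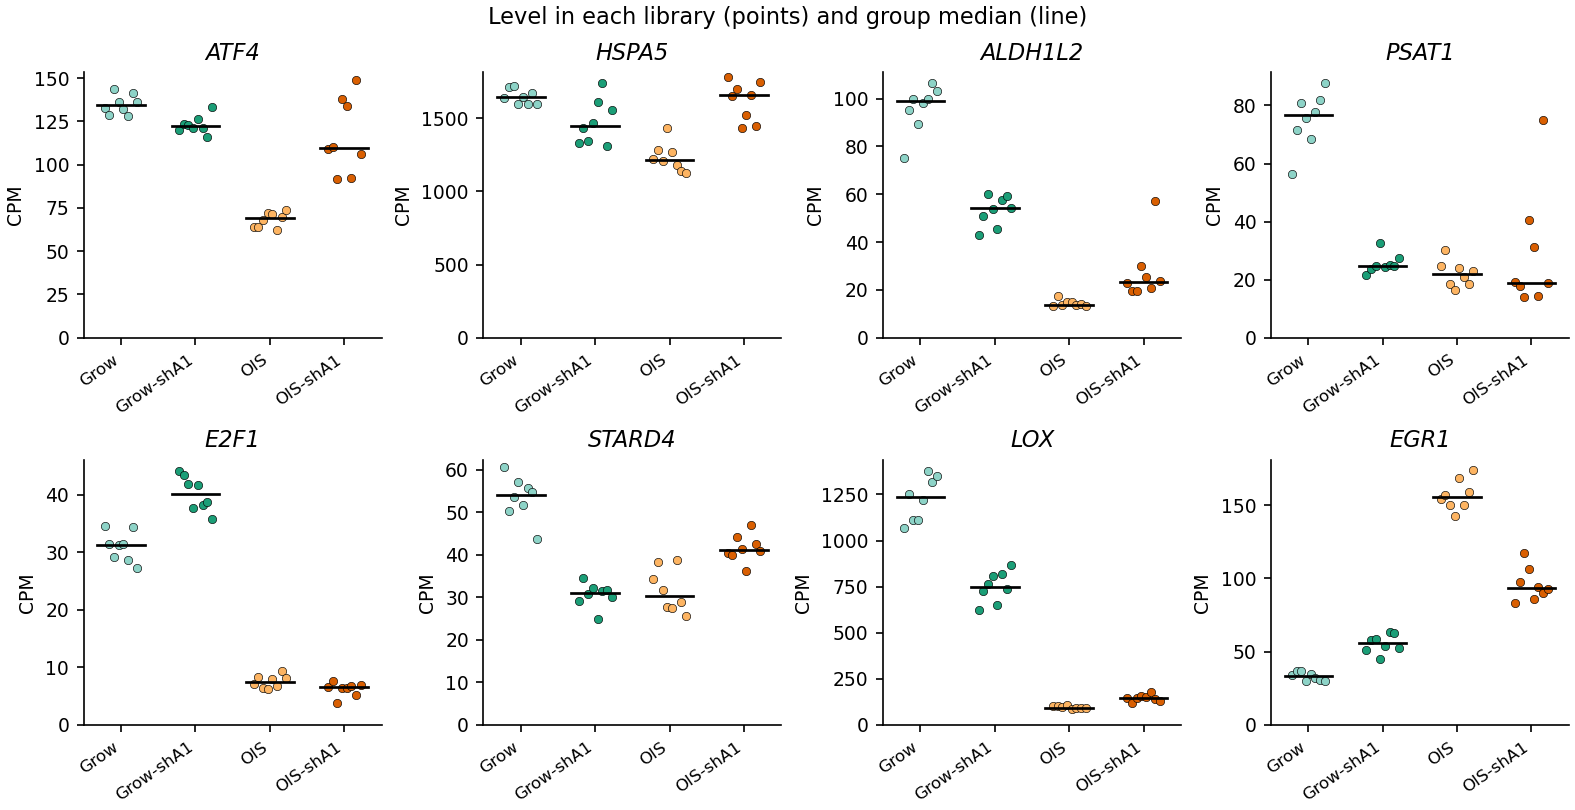
CPM in each of the 32 libraries (points) for 8 genes, with a line at the median of each group of 8. ATF4, HSPA5, ALDH1L2, STARD4 and LOX have lower medians in Grow-shA1 than in Grow and higher medians in OIS-shA1 than in OIS, and E2F1 and EGR1 the reverse. PSAT1 has 1 OIS-shA1 library, replicate 7, far above the rest.

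DNA replication genes moved the opposite way. Of 44 genes of replication and S phase, all tested, 21 had a lower interaction and 0 a higher one, with a median of -0.32. In Grow 27 rose with shA1 and 0 fell, against 14% and 14.3% of all genes. In OIS 10 fell and 0 rose, against 16.8% and 18.1% of all genes. By class 9 of the 21 were Grow only, 9 opposite and 1 OIS only, and 2 passed in neither state. With each library left out, 18 to 24 were lower, and with library sizes alone 32. In bulk RNA a changed share of cells in S phase and a changed amount of these mRNAs per cell cannot be told apart, in either state.

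*E2F1* (ENSG00000101412, chromosome 20, 32263489 to 32274210), the transcription factor of the G1 to S step, had 27.3 to 34.7 CPM (median 31.3) in Grow, 35.8 to 44.2 (median 40.3) in Grow-shA1, 6.34 to 9.46 (median 7.56) in OIS and 3.87 to 7.7 (median 6.55) in OIS-shA1 libraries. All Grow-shA1 libraries lay above all Grow libraries, and the OIS groups overlapped at a level several times lower. *E2F1* rose by 0.38 in Grow and fell by 0.30 in OIS, an interaction of -0.68 (SE 0.12, edgeR adjusted p = 5.5e-05). *POLA1* (ENSG00000101868, chromosome X, 24712036 to 25015103), the catalytic subunit of the polymerase that starts each strand, had 23.6 to 28.8 CPM (median 25.7) in Grow, 22.8 to 31.7 (median 29.5) in Grow-shA1, 7.23 to 11.8 (median 9.57) in OIS and 5.82 to 8.82 (median 7.46) in OIS-shA1 libraries. Its groups overlapped in both states, with effects of 0.17 and -0.43 and an interaction of -0.60 (SE 0.12, edgeR adjusted p = 0.000148). *PRIM1* (ENSG00000198056, chromosome 12, 57125380 to 57146157), the primase subunit of the same complex, had 8.43 to 12 CPM (median 10.3) in Grow, 11 to 18.9 (median 16.8) in Grow-shA1, 2.44 to 4.23 (median 3.11) in OIS and 1.88 to 3.43 (median 2.94) in OIS-shA1 libraries. It rose in Grow by 0.63, its OIS value was -0.20 (edgeR adjusted p = 0.302), and its interaction of -0.84 was the largest in size among the 21 called members.

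The replicative helicase followed the same pattern in part. *MCM7* had effects of 0.25 in Grow and -0.31 in OIS and *MCM4* of 0.28 and -0.23, whereas *MCM3* and *MCM6* had no called interaction, at -0.12 and 0.05. *TYMS* and *RRM2*, which supply nucleotides, had interactions of -0.54 and -0.36, and the sliding clamp *PCNA* of -0.43. *TK1*, another nucleotide enzyme, had no called effect, with 0.03 in Grow and 0.05 in OIS.

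E2F sites, spelled TTTGGCGC and TTTCCCGC, were found in the windows of 18 of 38 list members (47.4%) and 379 of 10562 genes (3.59%). Among those 379, 55 genes had a lower interaction (14.5%, against 11.9% of the genes of all windows) and 32 a higher one (8.44%, against 13.1%). The sites of *E2F1* itself, *POLA1* and *MCM7* are shown in capitals with 5 bases on either side, on the gene's strand. They lie at chr20:33686393-33686410 on the minus strand, chrX:24693776-24693793 on the plus strand and chr7:100101572-100101589 on the minus strand of GRCh38.p14.
E2F1: aaggaTTTGGCGCgtaaa
POLA1: acaggGCGCCAAAcgcgc
MCM7: ggaccGCGGGAAAcccgg

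Mitosis genes that changed with shA1 did so mainly in OIS, where they fell. Of 47 genes of G2/M and mitosis, 13 had a lower and 2 a higher interaction, with a median of -0.19. In OIS 17 fell and 1 rose, and in Grow 3 rose and 4 fell. Without single libraries the count of lower genes ran from 9 to 18, and with library sizes alone it was 26. *UBE2C* (chromosome 20, 44441215 to 44445596), which feeds ubiquitin to the anaphase-promoting complex, had 5.18 to 7.54 CPM (median 6.66) in OIS and 3.1 to 5.19 (median 4.26) in OIS-shA1 libraries, and *CDC20*, an activator of that complex, had 7.79 to 13 CPM (median 11.1) in OIS and 6.04 to 8.41 (median 7.14) in OIS-shA1 libraries. The values overlapped only at their edges. *UBE2C* fell in OIS by 0.64 and *CDC20* by 0.61, with interactions of -0.53 (SE 0.13) and -0.52 (SE 0.12) and edgeR adjusted p values of 0.00335 and 0.00104. In Grow their levels were 60.8 to 79.4 CPM (median 68.9) in Grow and 59 to 77.5 (median 63.7) in Grow-shA1 libraries for *UBE2C* and 102 to 135 CPM (median 111) in Grow and 92.3 to 130.4 (median 105) in Grow-shA1 libraries for *CDC20*. The proliferation marker *MKI67* and the kinase *PLK1* had interactions of -0.46 and -0.52. The exceptions were *SPC25*, a kinetochore subunit, at 0.57, and *CKS2* at 0.26, both higher, though *SPC25* turned negative on the linear CPM scale and did not pass with library sizes alone. On that linear scale *UBE2C* and *CDC20* turned positive, at 3.05 and 3.26 CPM.

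**Figure D4:**
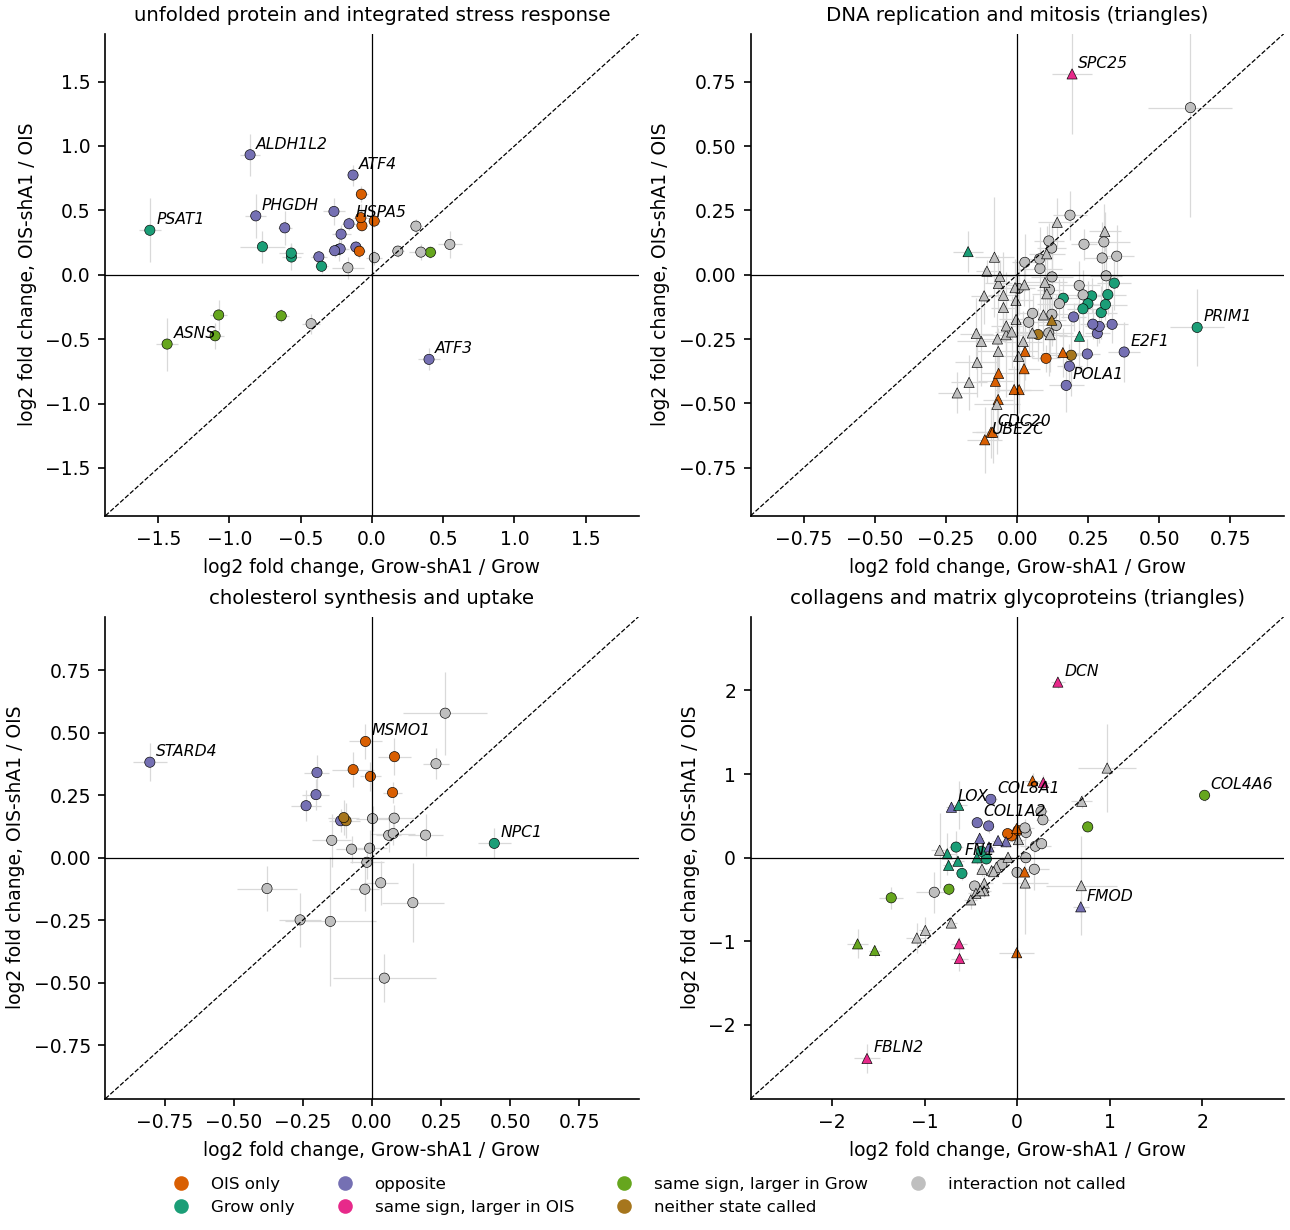
Members of 6 gene lists in 4 panels, each placed by its log2 fold change with shA1 in growing cells (x axis) and in OIS (y axis), with standard errors as bars, class colours as in the key and the dashed line at equal effects. Triangles are mitosis genes in the upper right panel and matrix glycoproteins in the lower right panel. Stress response genes lie mostly above the diagonal (26 of 35 called higher) and replication genes below it (21 of 44 called lower), and with library sizes alone these counts are 25 and 32.

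Cholesterol synthesis and uptake genes, which SREBP factors drive together, had mostly higher interactions among those called. Of 31 tested, 12 had a higher and 1 a lower interaction, with a median of 0.15. In OIS 14 rose and 1 fell, and in Grow 3 rose and 7 fell. With library sizes alone 7 were higher and 2 lower. *STARD4* (ENSG00000164211, chromosome 5, 110831731 to 110848260), which carries cholesterol between membranes, had 43.8 to 60.6 CPM (median 54.1) in Grow, 25 to 34.6 (median 31.1) in Grow-shA1, 25.6 to 38.8 (median 30.2) in OIS and 36.3 to 46.9 (median 41.1) in OIS-shA1 libraries. The Grow groups were apart and the OIS groups overlapped at 1 edge, with effects of -0.80 and 0.38 and an interaction of 1.19 (SE 0.10, edgeR adjusted p = 2.43e-11).

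*MSMO1* (ENSG00000052802, chromosome 4, 166248775 to 166264312), a sterol demethylase, had 37.6 to 44.9 CPM (median 43.9) in Grow, 35 to 51.7 (median 42.5) in Grow-shA1, 27.5 to 37.7 (median 33.9) in OIS and 37.8 to 52.7 (median 46.4) in OIS-shA1 libraries. It belonged to OIS only, with effects of -0.02 in Grow and 0.46 in OIS and an interaction of 0.49 (SE 0.096, edgeR adjusted p = 0.000166). The enzymes *SQLE*, *SC5D* and *LSS* also had higher interactions, of 0.45, 0.42 and 0.32, but *HMGCS1*, an early enzyme of the pathway, was at 0.00052 and *CYP51A1* at -0.10. The member with a lower interaction was *NPC1*, the lysosomal cholesterol exporter, at -0.39, which rose in Grow only.

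Fatty acid genes were fewer, with 7 of 29 higher and 2 lower. *SCD*, the desaturase that makes oleate, fell by 0.90 in Grow and by 0.13 in OIS. *CD36*, a fatty acid receptor, had a higher interaction of 1.79 and its regulator *PPARG* one of 1.07, both called in OIS only. *DGAT2* (chromosome 11, 75470557 to 75512579), which makes triglyceride for storage, ran the other way with 0.225 to 0.868 CPM (median 0.742) in Grow, 0.399 to 1.71 (median 1.15) in Grow-shA1, 12.7 to 20.3 (median 15.8) in OIS and 5.59 to 8.46 (median 6.33) in OIS-shA1 libraries. In OIS its shA1 libraries were all below the vector libraries, and in Grow the levels were near 1 CPM and overlapped. Its effects were 0.80 in Grow (edgeR adjusted p = 0.0479) and -1.23 in OIS.

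Collagen genes with a called interaction were mostly higher. Of 26 tested chains, 12 had a higher and 2 a lower interaction, with a median of 0.31, or 10 and 5 with library sizes alone. In Grow 12 fell and 5 rose with shA1, and in OIS 13 rose and 4 fell. *COL1A2*, a chain of type I collagen, fell by 0.43 in Grow and rose by 0.42 in OIS, an interaction of 0.85 (SE 0.082, edgeR adjusted p = 2.27e-10), and *COL3A1* showed -0.31 and 0.38. *COL1A1*, the other chain of type I collagen, fell by 0.60 in Grow and its OIS value was -0.19 (edgeR adjusted p = 0.0599). Whether the chains of type I collagen differed from each other was not tested.

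*COL8A1* (ENSG00000144810, chromosome 3, 99357319 to 99518070), a short-chain collagen of vessel walls, had 289 to 421 CPM (median 371) in Grow, 259 to 349 (median 286) in Grow-shA1, 52.9 to 66.1 (median 61.4) in OIS and 88.7 to 109 (median 99.5) in OIS-shA1 libraries. Its OIS groups were apart and its Grow groups overlapped, with an interaction of 0.98 (SE 0.093, edgeR adjusted p = 1.49e-10). *COL4A6* (ENSG00000197565, chromosome X, 107386780 to 107682727), a basement membrane chain, had 31.5 to 42.2 CPM (median 38.5) in Grow, 138 to 169.6 (median 148) in Grow-shA1, 28.8 to 51.8 (median 43.6) in OIS and 63.8 to 81.8 (median 72.9) in OIS-shA1 libraries. It rose with shA1 in both states without overlap, by 2.03 in Grow and 0.75 in OIS, and with *COL4A5* was 1 of the 2 chains with a lower interaction. The neighbouring pair *COL4A1* and *COL4A2* went the other way, at 0.32 and 0.32.

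Among 42 matrix glycoproteins, elastic fibre genes and proteoglycans, 16 had a higher and 6 a lower interaction, with a median of 0.12 (0.006 with library sizes alone). With shA1, 29 fell and 5 rose in Grow, and 19 fell and 10 rose in OIS. *LOX* (ENSG00000113083, chromosome 5, 121398890 to 121413980), which crosslinks collagen and elastin, had 1068 to 1375 CPM (median 1236) in Grow, 622 to 868 (median 749) in Grow-shA1, 86.7 to 109 (median 94.7) in OIS and 119.7 to 181 (median 146) in OIS-shA1 libraries. It was apart in both states and in opposite directions, at -0.71 in Grow and 0.60 in OIS, an interaction of 1.31 (SE 0.095, edgeR adjusted p = 1.07e-13). *DCN* (ENSG00000011465, chromosome 12, 91539025 to 91576900), decorin, a proteoglycan that binds collagen fibrils and TGF-beta, had 144 to 195 CPM (median 170.4) in Grow, 173 to 276 (median 236) in Grow-shA1, 19.3 to 25.9 (median 22.6) in OIS and 83.7 to 109 (median 96.4) in OIS-shA1 libraries. All OIS-shA1 libraries stood far above all OIS libraries, and the Grow groups overlapped. *DCN* rose in both states, by 0.44 in Grow and 2.10 in OIS, an interaction of 1.66 (SE 0.11, edgeR adjusted p = 5.61e-15). On the linear CPM scale that interaction did not pass (12.5 CPM, limma adjusted p = 0.539).

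*FMOD* (ENSG00000122176, chromosome 1, 203309756 to 203320617), fibromodulin, a relative of decorin, had 6.99 to 11.5 CPM (median 8.55) in Grow, 11.9 to 15.3 (median 14.1) in Grow-shA1, 8.9 to 13.7 (median 10.3) in OIS and 4.97 to 9.93 (median 6.96) in OIS-shA1 libraries. It went up in Grow, where the groups were apart, by 0.69 and down in OIS by 0.59, an interaction of -1.27 (SE 0.15, edgeR adjusted p = 3.33e-08). *FN1*, fibronectin, fell by 0.64 in Grow and had -0.04 in OIS, and the elastin gene *ELN* fell in OIS only, with -0.01 in Grow and -1.14 in OIS. *BGN*, biglycan, fell in both states and more in Grow (-1.54 against -1.11), and *FBLN2* fell in both and more in OIS (-1.62 against -2.40). On the linear CPM scale the interaction of *FBLN2* turned positive and passed (3.93 CPM, limma adjusted p = 0.000896). *FBN2* had none, at 0.02 (SE 0.12, edgeR adjusted p = 0.933), but passed on the linear CPM scale (41.6 CPM, limma adjusted p = 0.0206).

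RAS-MAPK output and feedback genes with a called interaction were mostly lower. Of 30 tested, 12 had a lower and 3 a higher interaction, with a median of -0.18. In Grow 14 rose and 5 fell, and in OIS 10 rose and 9 fell. *EGR1* (ENSG00000120738, chromosome 5, 137801179 to 137805004), an immediate early transcription factor, had 30.1 to 37 CPM (median 33.2) in Grow, 44.7 to 63.5 (median 56) in Grow-shA1, 142 to 174 (median 156) in OIS and 83.3 to 117 (median 93.5) in OIS-shA1 libraries. Neither pair of groups overlapped, with effects of 0.74 and -0.71 and an interaction of -1.46 (SE 0.091, edgeR adjusted p = 1.3e-15). *FOS* (ENSG00000170345, chromosome 14, 75745477 to 75748933), the partner of *JUN* in AP-1, had 0.843 to 2.98 CPM (median 1.99) in Grow, 2.2 to 5.35 (median 3.02) in Grow-shA1, 4.54 to 7.98 (median 5.64) in OIS and 2.01 to 4.99 (median 3.64) in OIS-shA1 libraries. Its groups overlapped in both states at low levels, with 0.88 in Grow, -0.72 in OIS and an interaction of -1.60 (SE 0.28, edgeR adjusted p = 2.68e-05).

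The EGF receptor ligands *AREG* and *EREG* rose in Grow, by 1.34 and 1.16, with 0.22 and 0.17 in OIS, though the interaction of *AREG* turned positive on the linear CPM scale. The feedback inhibitors *DUSP6* and *SPRY2* rose in both states and more in Grow (0.73 against 0.36 for *DUSP6*, 0.65 against 0.27 for *SPRY2*). *MYC* fell in both states without a called interaction, at 0.21. *EPHA4*, *ETV5* and *SPRED1* were the members with a higher interaction. *HRAS* itself moved the same way as this list, at -0.41, and its part in the list's counts was not tested.

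Of 23 SASP cytokines tested, 13 rose with shA1 in Grow and 16 in OIS, and 6 had a lower and 1 a higher interaction, with a median of -0.27. *CSF3* (ENSG00000108342, chromosome 17, 38171614 to 38174066), the granulocyte growth factor, had 1.63 to 26.7 CPM (median 6.96) in Grow, 13.8 to 107 (median 40.5) in Grow-shA1, 345 to 524 (median 465) in OIS and 307 to 480.1 (median 382) in OIS-shA1 libraries. The groups overlapped in both states and Grow replicate 1 stood above its group. *CSF3* rose by 2.40 in Grow and fell by 0.25 in OIS, an interaction of -2.66 (SE 0.43, edgeR adjusted p = 9.5e-06). *IL24*, *CXCL10*, *CXCL1*, *CXCL2* and *IL1B* rose in both states with the larger log2 change in Grow. For *IL1B*, *CXCL1*, *CXCL2*, *MMP1* and *MMP3* the interaction turned positive on the linear CPM scale, and *CXCL2* lost its call with DESeq2 and with the replicate block, and when any of 16 single libraries was left out. *CXCL8*, *CXCL3* and *IL6* had no called interaction, at -0.11, -0.26 and -0.47, though *IL6* passed with the replicate block (-0.51, edgeR adjusted p = 0.0223), without a filter (0.0213), with library sizes alone (0.015) and without any of 5 single libraries, and 16.8% of its exon bases overlap an antisense gene. On the linear CPM scale *CXCL2* (26.5 CPM), *CXCL3* (78.8) and *MMP1* (8398) passed as positive (limma adjusted p = 1.11e-07, 2.23e-09 and 5.49e-08). *IL1B*, *CXCL1*, *MMP3* and *CXCL8* were positive there without passing.

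The cytokine with a higher interaction was *CCL2* (ENSG00000108691, chromosome 17, 32582304 to 32584222), the monocyte attractant MCP-1, which had 6.16 to 13.9 CPM (median 11.6) in Grow, 8.26 to 13.9 (median 9.19) in Grow-shA1, 3.23 to 5.37 (median 4.2) in OIS and 12 to 19.5 (median 15.8) in OIS-shA1 libraries. In OIS all shA1 libraries were above all vector libraries, and in Grow the groups overlapped. *CCL2* rose by 1.95 in OIS with -0.14 in Grow, an interaction of 2.09 (SE 0.20, edgeR adjusted p = 1.29e-10). It was lower in OIS than in Grow vector libraries, and shA1 brought it to a median of 15.8 CPM.

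NF-kB regulators had 10 lower and 2 higher interactions of 27 tested, with a median of -0.21, and 17 lower and 2 higher with library sizes alone. The feedback inhibitors *ZC3H12A*, an RNase that degrades cytokine mRNA, and *TNFAIP3* (A20) rose in Grow by 0.70 and 0.60, with -0.23 and -0.08 in OIS. *BIRC3*, a ubiquitin ligase of the TNF receptor, rose by 0.27 in Grow and fell by 0.64 in OIS. *IL1RL1*, the receptor of IL-33, fell in OIS only, by 0.82. The subunit *RELA* had no called effect, at -0.00087 and -0.07, and *NFKB1* had an interaction of -0.31. *TNFAIP6*, a hyaluronan-binding protein, rose in OIS only, by 1.56.

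Matrix proteases and their inhibitors divided evenly, with 9 of 35 higher and 8 lower (6 and 14 with library sizes alone). The inhibitors *TIMP1* and *TIMP2* rose in OIS, by 0.27 and 0.34, with -0.25 and -0.03 in Grow. *ADAMTS6* (ENSG00000049192, chromosome 5, 64444563 to 64777747), a secreted metalloprotease, had 30.5 to 37.1 CPM (median 34.6) in Grow, 20.1 to 25.6 (median 23.6) in Grow-shA1, 9.23 to 12.5 (median 10.6) in OIS and 12.6 to 19.2 (median 15) in OIS-shA1 libraries. Both pairs were apart in opposite directions, with an interaction of 1.04 (SE 0.11, edgeR adjusted p = 9.53e-10).

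Targets of *SRF* and YAP, the factors that answer to actin tension, included 12 that fell with shA1 in Grow and 15 in OIS, with 0 rising in either, and 10 of 27 had a lower and 4 a higher interaction (15 and 2 with library sizes alone). *CCN1* (ENSG00000142871, chromosome 1, 86046444 to 86049645), a matricellular YAP target, had 726 to 859 CPM (median 804) in Grow, 680.4 to 750.1 (median 712) in Grow-shA1, 122 to 146 (median 129.8) in OIS and 65.5 to 86.7 (median 80.1) in OIS-shA1 libraries. In OIS the groups were apart, in Grow they overlapped, and *CCN1* fell by 0.16 and 0.76, an interaction of -0.60 (SE 0.066, edgeR adjusted p = 4.97e-09). *CCN2* (CTGF) fell in OIS only, with 0.09 and -0.47. The smooth muscle genes divided. *TAGLN* and *CNN1* fell more in OIS, with interactions of -0.41 and -0.31. *ACTA2* fell more in Grow, with an interaction of 0.32, and *MYL9* fell in Grow only, with an interaction of 0.40. On the linear CPM scale *CCN1*, *ANKRD1* and *LMOD1* turned to positive interactions, which passed for *ANKRD1* and *LMOD1* (limma adjusted p = 0.00474 and 0.00412).

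TGF-beta and BMP genes had 10 lower and 5 higher interactions of 33 (13 and 2 with library sizes alone). The BMP targets *ID1* and *ID4* fell in OIS only, by 0.67 and 2.01, and the inhibitory *SMAD7* rose by 0.35 in Grow and fell by 0.31 in OIS. *TGFB1* and *TGFB2*, 2 ligands of 1 receptor, went apart, with interactions of 0.45 and -0.57.

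Among growth factors 10 of 33 were higher and 7 lower. *KITLG* (ENSG00000049130, chromosome 12, 88886570 to 88974628), the ligand of KIT, had 66.8 to 110.1 CPM (median 93.8) in Grow, 57.1 to 78.7 (median 69.6) in Grow-shA1, 51.8 to 70.9 (median 61.7) in OIS and 113 to 204 (median 145) in OIS-shA1 libraries. It fell by 0.41 in Grow and rose by 1.31 in OIS, where its groups were apart, an interaction of 1.72 (SE 0.14, edgeR adjusted p = 1.81e-12). *PDGFB* (ENSG00000100311, chromosome 22, 39619364 to 39640756), a mitogen of mesenchymal cells, had 27.3 to 39.4 CPM (median 29) in Grow, 19.9 to 39.8 (median 24.9) in Grow-shA1, 13.8 to 19.5 (median 16.3) in OIS and 3.64 to 7.33 (median 4.85) in OIS-shA1 libraries. It fell in OIS, without overlap, by 1.66, and its Grow value was -0.21 (edgeR adjusted p = 0.18), an interaction of -1.45 (SE 0.17, edgeR adjusted p = 3.07e-08). *PDGFA* did the reverse, falling by 0.92 in Grow with -0.28 in OIS. *IGFBP3*, a carrier of IGF, fell in Grow only, by 1.17, with 0.08 in OIS.

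**Figure D5:**
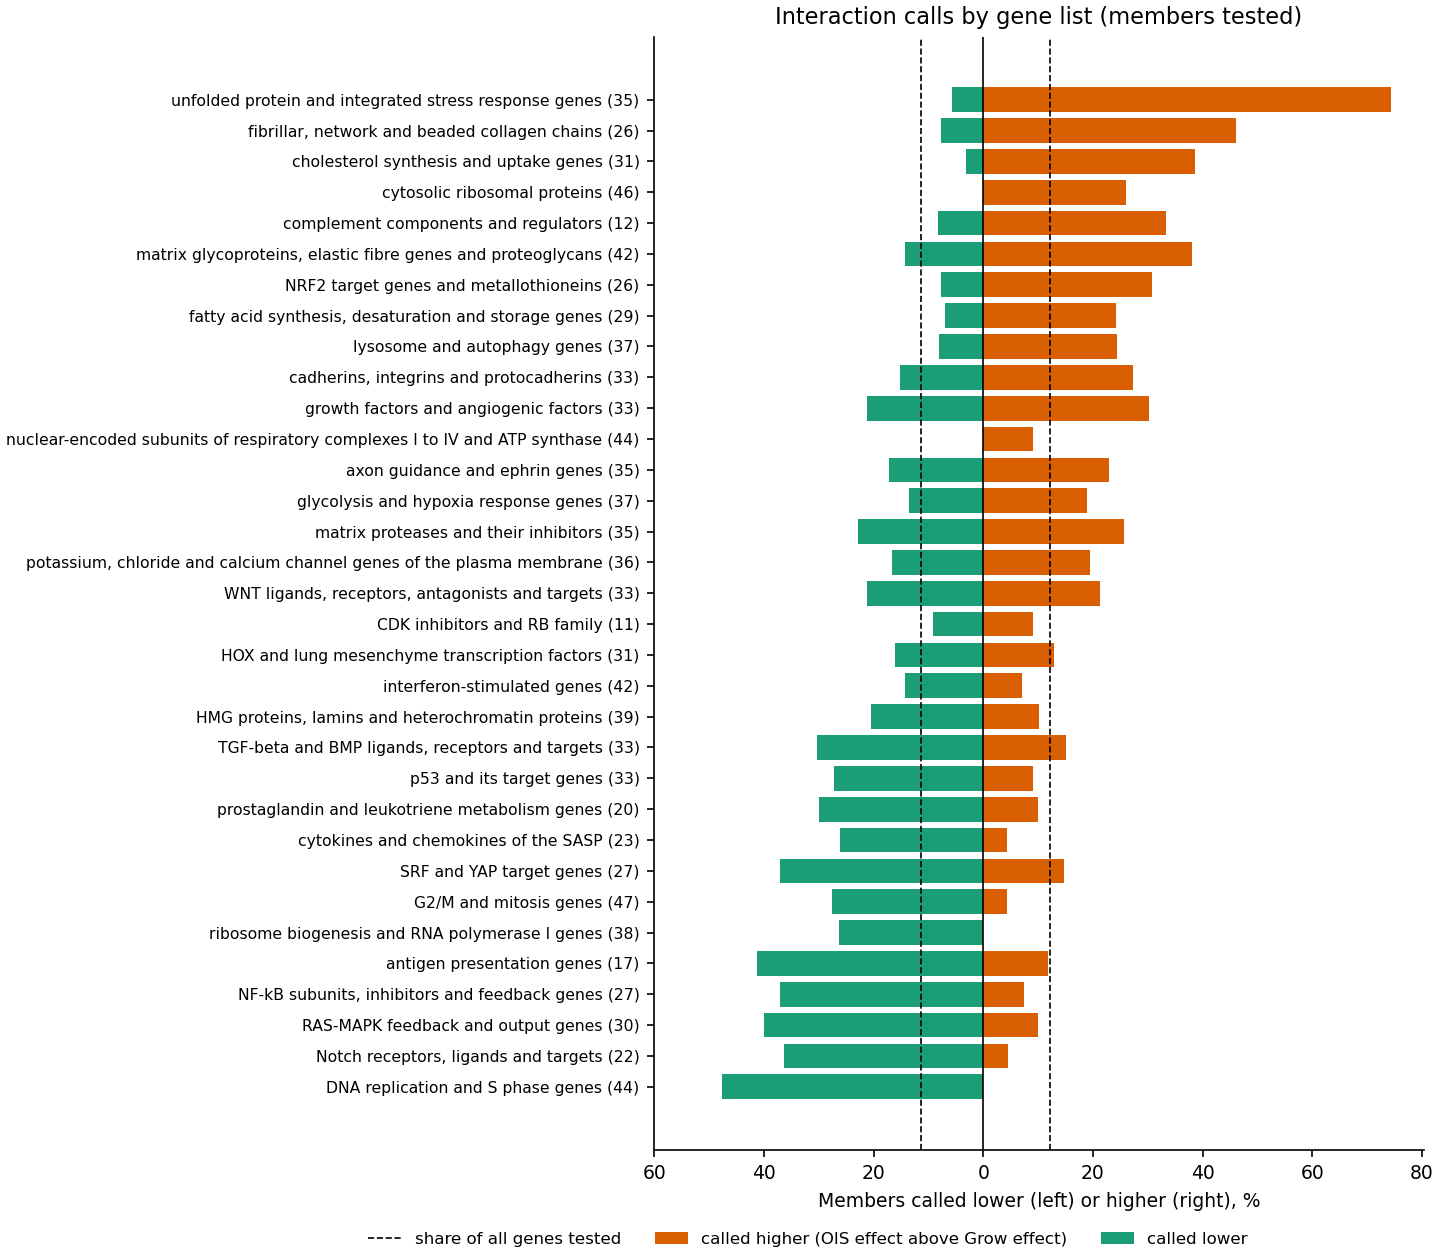
Share of the tested members of each gene list whose interaction was called higher (bars to the right) or lower (bars to the left), in percent, with the number tested in brackets and dashed lines at the shares of all genes tested, 12.2% and 11.4%. Stress response genes extend farthest to the right (26 of 35) and DNA replication genes farthest to the left (21 of 44). With library sizes alone the right-hand bars of ribosomal proteins (12 to 0), respiratory subunits (4 to 0) and lysosome genes (9 to 2) are lost or nearly so.

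Other lists moved less or depended on the scaling. Among all genes tested 12.2% were higher and 11.4% lower, 23.6% called in either direction. Of 46 cytosolic ribosomal proteins 12 were higher and 0 lower, and 26 fell slightly in Grow, but with library sizes alone 0 passed. Ribosome biogenesis genes had 10 of 38 lower and 0 higher, and 22 lower with library sizes alone. *UBTF* and *FBL*, which serve ribosomal RNA transcription and modification, fell in OIS only, by 0.34 and 0.33. Of 37 lysosome genes 16 rose and 1 fell in Grow, 23 rose and 2 fell in OIS, and their 9 higher and 3 lower interactions became 2 and 9 with library sizes alone. The 44 respiratory subunits had 4 higher and 0 lower, which turned to 0 and 6. Their called share of 9.09% lay below that of all genes.

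Genes of the antioxidant factor NRF2 had 8 of 26 higher and 2 lower (6 and 4 with library sizes alone). *TXNRD1* (thioredoxin reduction), *GCLM* (glutathione synthesis) and the NADPH source *ME1* rose in OIS by 0.25, 0.64 and 0.36, and none of these 3 rose in Grow. Notch genes had 8 of 22 lower and 1 higher. The ligand *DLL4* rose in Grow only, by 1.08, and the target *HEYL* fell in OIS only, by 1.06, with an interaction that did not pass when any of 3 single libraries was left out. Antigen presentation genes had 7 of 17 lower and 2 higher, among them *TAP1* and *TAP2*, the peptide pump, at -0.28 and -0.45, although 32.3% of the exon bases of *TAP2* are shared with another gene. Interferon-stimulated genes stayed near the background, with 6 of 42 lower and 3 higher. Targets of p53 had 9 of 33 lower and 3 higher (14 and 1 with library sizes alone). Of the heterochromatin and HMG genes 8 of 39 were lower and 4 higher, 30.8% called against 23.6% of all genes. These became 16 and 1 with library sizes alone. *SUV39H1*, the H3K9 methyltransferase, fell in OIS only by 0.64, with 20.3% of its exon bases shared with an antisense gene, and *HMGN1* rose there by 0.26. The remaining lists had calls in both directions, with 7 higher and 5 lower of 37 glycolysis and hypoxia genes (4 and 10 with library sizes alone, as in the brackets that follow), 4 and 1 of 12 complement genes, 2 and 6 of 20 prostaglandin genes, 8 and 6 of 35 axon guidance genes (5 and 9), 7 and 7 of 33 WNT genes (7 and 10), 7 and 6 of 36 channels (7 and 12), 9 and 5 of 33 cadherins and integrins (6 and 8), 4 and 5 of 31 HOX and mesenchyme factors (2 and 8), and 1 and 1 of 11 CDK inhibitors and RB genes (0 and 1). Among these remaining lists the called share was 29% for HOX and mesenchyme factors and 18.2% for CDK inhibitors and RB genes, against 23.6% of all genes. In the others it ran from 32.4% (glycolysis and hypoxia) to 42.4% (WNT). With library sizes alone the median interaction turned from positive to negative for growth factors (-0.05), fatty acid genes (-0.04), glycolysis (-0.07), WNT (-0.07), HOX (-0.06), CDK inhibitors (-0.09), NRF2 (-0.02), lysosome (-0.02) and respiratory genes (-0.04).

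Among single genes chosen by size over the whole table, the OIS only set was led upward by *EVI2B*, *CCL2*, *EVI2A* and *FER1L6*. *EVI2B* (ENSG00000185862, chromosome 17, 29630784 to 29641130), a membrane protein gene inside an intron of *NF1*, had 0.956 to 1.62 CPM (median 1.3) in Grow, 0.586 to 1.77 (median 0.864) in Grow-shA1, 1.95 to 5.42 (median 3.6) in OIS and 12.6 to 16.2 (median 14.2) in OIS-shA1 libraries. In OIS all shA1 libraries lay above all vector libraries, with an interaction of 2.15 (SE 0.25, edgeR adjusted p = 1.44e-08). *EVI2A*, which also lies within *NF1*, rose there by 2.25. *EVI2B* shares 30.1% and *EVI2A* 25.3% of its exon bases with another gene on the same strand, and fragments there are not counted. *FER1L6* had 0.1 to 0.582 CPM in Grow and 0.0586 to 0.4 in Grow-shA1 libraries, and passed the filter on low counts through OIS, so that its low counts limit what could be detected in Grow. The downward set was led by *MCPH1-AS1*, *LINC00452*, *LPAR6* and *ABCB1*. *MCPH1-AS1* likewise stayed under 1 CPM in both Grow groups, at 0.169 to 0.842 and 0.171 to 0.679. *ABCB1* (ENSG00000085563, chromosome 7, 87133175 to 87342611), the drug efflux pump MDR1, had 4.31 to 6.89 CPM (median 5.51) in Grow, 2.51 to 7.29 (median 4.07) in Grow-shA1, 6.54 to 12.7 (median 9.67) in OIS and 0.999 to 2.61 (median 2.05) in OIS-shA1 libraries. It fell in OIS without overlap by 2.23, while its Grow groups overlapped, an interaction of -1.95 (SE 0.24, edgeR adjusted p = 7.14e-08). *LPAR6* (ENSG00000139679, chromosome 13, 48963707 to 49018840), a receptor for lysophosphatidic acid inside an intron of *RB1*, had 1.38 to 2.93 CPM (median 1.68) in Grow, 1.6 to 2.34 (median 1.98) in Grow-shA1, 8.85 to 26.5 (median 16.2) in OIS and 1.84 to 6.42 (median 3.71) in OIS-shA1 libraries. It was higher in OIS than in Grow vector libraries and fell with shA1 in OIS by 2.02, an interaction of -2.11 (SE 0.34, edgeR adjusted p = 7.69e-06).

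In the Grow only set *SERPINB4*, *FOXQ1*, *THBD* and *C3* led upward. *SERPINB4*, a protease inhibitor with a near-identical paralog whose shared reads are not counted, rose by 3.64 with 0.14 in OIS. *THBD* (ENSG00000178726, chromosome 20, 23026270 to 23030378), thrombomodulin, had 1.04 to 3.61 CPM (median 2.08) in Grow, 3.98 to 9.2 (median 6.58) in Grow-shA1, 51.5 to 70.7 (median 59.9) in OIS and 47.6 to 74.1 (median 59.1) in OIS-shA1 libraries. *C3* (ENSG00000125730, chromosome 19, 6677715 to 6730573), the central complement component, had 98.7 to 156 CPM (median 138) in Grow, 289.6 to 441 (median 374) in Grow-shA1, 68.3 to 142 (median 112) in OIS and 78.9 to 143 (median 111) in OIS-shA1 libraries. For both genes the Grow groups were apart and the OIS groups overlapped. Their interactions were -1.56 (SE 0.20, edgeR adjusted p = 1.26e-07) for *THBD* and -1.54 (SE 0.16, edgeR adjusted p = 1.94e-09) for *C3*.

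Downward the Grow only set was led by *MYCT1*, *NRXN3*, *NALCN* and *ITGBL1*. *MYCT1* (ENSG00000120279, chromosome 6, 153019030 to 153045636), named as a target of *MYC*, had 1.14 to 2.44 CPM (median 1.61) in Grow, 0.0586 to 0.683 (median 0.215) in Grow-shA1, 2.27 to 3.64 (median 2.88) in OIS and 1.69 to 3.73 (median 2.81) in OIS-shA1 libraries. It fell to near 0 in Grow-shA1 and its OIS groups overlapped, with an interaction of 2.48 (SE 0.37, edgeR adjusted p = 1.9e-06). *NRXN3* (ENSG00000021645, chromosome 14, 78708734 to 80330762), a neurexin of synapses, had 2.98 to 7.78 CPM (median 6.84) in Grow, 0.457 to 1.1 (median 0.808) in Grow-shA1, 0 to 0.396 (median 0.221) in OIS and 0 to 0.528 (median 0.0884) in OIS-shA1 libraries. It stayed under 1 CPM in OIS with or without shA1, so its interaction of 2.46 (SE 0.68, edgeR adjusted p = 0.00632) came from Grow, and without OIS-shA1 replicate 6 it did not pass, at 1.57 (adjusted p = 0.175). *NALCN*, at 0.278 to 1.31 CPM in OIS and 0.422 to 0.759 in OIS-shA1, and *ITGBL1*, at 0.344 to 1.46 and 0.118 to 1.18, were also low in OIS, where the counts of these 3 genes limit what could be detected.

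Genes with opposite effects, raised in OIS and lowered in Grow, were led by *ADM2*, *MBP*, *ALDH1L2*, *RSRP1* and *SEL1L3*. *MBP* (chromosome 18, 74690783 to 74845639), the gene of myelin basic protein that fibroblasts express at a low level, had 1.61 to 3.6 CPM (median 2.08) in Grow, 0.399 to 1.84 (median 1.43) in Grow-shA1, 0.48 to 1.22 (median 0.835) in OIS and 1.3 to 2.91 (median 1.63) in OIS-shA1 libraries. The OIS groups were apart and the Grow groups overlapped, with effects of -0.93 in Grow and 1.05 in OIS. *RSRP1* and *SEL1L3* had -0.82 and -0.77 in Grow and 0.81 and 1.01 in OIS. The reverse set included *SUSD2*, *DGAT2*, *PDZK1* and *FOS*. *SUSD2* (chromosome 22, 24577227 to 24585078), a membrane protein with a sushi domain, had 1.19 to 2.97 CPM (median 1.8) in Grow, 2.91 to 7.86 (median 5.95) in Grow-shA1, 7.81 to 14.5 (median 10) in OIS and 4.54 to 8.75 (median 6.32) in OIS-shA1 libraries. The groups overlapped at their edges in both states, with 1.55 in Grow and -0.84 in OIS and an interaction of -2.39 (SE 0.24, edgeR adjusted p = 8.8e-10).

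Where the sign was shared, *ANOS1* and *DCN* led the genes with the larger effect in OIS and *MMP3* and *IL13RA2* those with the larger effect in Grow. *ANOS1* fell by 0.91 in Grow and 2.33 in OIS. *MMP3*, stromelysin, rose by 2.67 in Grow and 1.02 in OIS, and *IL13RA2*, a decoy receptor of IL-13, by 2.43 and 0.81.

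Groups of 8 that did not overlap were counted over all genes on TMM-scaled CPM, a measure that needs no test but rests on that scaling. In OIS 690 of the 13903 genes tested had all shA1 libraries above all vector libraries and 535 all below, 1225 in all. In Grow the counts were 451 and 553, 1004 in all. By the test, a different measure, 34.9% and 28.3% of genes passed in OIS and in Grow. Of the 1436 OIS only genes 449 were apart in OIS, and of the 872 Grow only genes 296 were apart in Grow, classes that the tests in each state define. Of the 407 opposite genes, a class that these tests also define, 97 were apart in OIS and 87 in Grow.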

How the data were processed

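RNA-seq libraries of IMR90 cells in 4 groups of 8 were analysed (32 of 70 samples). The authors deposited raw counts per gene. They aligned reads with STAR to hg19 and counted fragments per GENCODE gene with featureCounts, unstranded, without multi-mapping fragments or fragments that fall on more than 1 gene, per the file headers and the methods. Overlapping genes, antisense genes and near-identical paralogs therefore lose fragments. The library kit and sequencer of each library are not given in the sources used here. No column of per-sample values was left unmapped (0).

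Genes were kept with filterByExpr (minimum count 10) over the 4 groups, and TMM factors came from all 32 libraries. The interaction was fitted with edgeR 4.0.16 (R 4.3.3), quasi-likelihood F test, on the 32 libraries, and the effect in each state on its 16 libraries with the same genes and factors. P-values were adjusted by Benjamini-Hochberg over all 13903 genes and called under 0.05. SE is the log2 fold change over the square root of F. Counting error at these depths is small for genes above a few CPM, and OIS replicate 4 is the least precise. On simulated counts with 200 changed genes among 13903, the interaction test recovered 83.5% (71.6% at 1.5-fold, 85.1% at 2-fold, 93.9% at 4-fold) with 4.02% false calls.

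Named genes have a mean of at least 1 CPM and a called interaction. They are the 4 largest OIS only and Grow only interactions in each direction whose groups do not overlap in the state with the effect, the 5 opposite genes in each direction with the largest smaller effect, 2 genes of the same sign for each state, the 3 largest called members of each of 33 lists, the SASP and matrix genes the study names with shA1, and HRAS. Some genes the rule named are not reported here. The members and lists were chosen with earlier results of these data known. Figures were drawn with matplotlib 3.10.9. DESeq2 1.42.0 and limma 3.58.1 served for alternatives, with other normalizations, filters, thresholds, scales, a replicate block and each library left out.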

Additional observations from a re-analysis of the deposited data

Results flagged for a closer look

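The shA1 effect differed between the states by the test of the interaction itself in 3281 genes. Of the genes with opposite effects, those higher in OIS and lower in Grow with the largest effects had interactions on the log2 scale of 2.71 for *ADM2*, 1.98 for *MBP*, 1.78 for *ALDH1L2*, 1.63 for *RSRP1* and 1.77 for *SEL1L3*. Those lower in OIS had -2.39 for *SUSD2*, -2.02 for *DGAT2*, -1.75 for *PDZK1* and -1.60 for *FOS*.

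Single libraries stood apart from their group in 10 of 152 combinations of 38 genes and 4 groups by Dixon's criterion, which chance meets in about 1 group of 20. OIS-shA1 replicate 7 was highest for *PSAT1*, at 74.9 CPM with the next library at 40.6, and for *ALDH1L2*, at 57.2 with the next at 29.8. Grow replicate 1 was highest for *CSF3* (26.7 CPM, next 12) and lowest for *NRXN3* (2.98, next 6.34) and *MSMO1* (37.6, next 41.6). Without it the interaction of *CSF3* went from -2.66 to -3.09. OIS-shA1 replicate 6 was highest for *NRXN3* (0.528 CPM, next 0.158). The remaining cases were *POLA1* in Grow-shA1 replicate 8 (22.8 CPM, next 28.4), *FMOD* in Grow replicate 5 (11.5, next 8.99), *COL4A6* in the shallow OIS replicate 4 (28.8, next 41.9) and *PDGFB* in Grow replicate 7 (39.4, next 32.9). What sets these libraries apart was not tested.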

How the results depend on the processing

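The count of 3281 interactions was 3066 to 3449 with each of the 32 libraries left out (1563 to 1755 higher, 1481 to 1694 lower), 3462 with DESeq2, 3287 with upper-quartile factors, 2982 without a filter and 3023 with at least 10 counts in every library. The classes ran from 1302 to 1553 genes for OIS only, 790 to 923 for Grow only, 363 to 439 for opposite, 133 to 173 for larger in OIS and 144 to 173 for larger in Grow. At an adjusted p under 0.01 there were 2000 interactions (1071 higher, 929 lower), with 902 OIS only, 563 Grow only, 181 opposite, 57 larger in OIS and 97 larger in Grow, and 2589 genes passed in Grow. With an interaction of at least 1.5-fold there were 783 (347 higher, 436 lower, and 284, 189, 163, 44 and 66 by class), and at 2-fold 306 (116 higher, 190 lower, and 110, 87, 58, 12 and 20). With library sizes alone the split was 888 higher and 3456 lower. The replicate block gave 3276 calls, of which 3148 were shared. Same-numbered libraries showed little tendency to deviate together (correlations from -0.28 to 0.263, with its own number the best match for at most 2 of 8 libraries). The main fit used no pairing by number, and such weak correlations cannot exclude a culture or batch shared by some numbers.

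Of 134 named genes, 89 kept call and sign in every alternative that fitted them, the adjusted p under 0.01 aside. At that threshold 15 did not pass. The filter of at least 10 counts in every library fitted 94 of the 134, so the rest were not assessed there. On the linear CPM scale, which asks for equal differences in CPM and not equal folds, the sign turned in 22. These were SERPINB4 (2.309 CPM), MMP3 (4157), IL13RA2 (2.825), AREG (0.2658), ANKRD1 (16.01), LMOD1 (12.53), CCN1 (28.76), SPC25 (-1.928), UBE2C (3.045), CDC20 (3.264), CDKN2C (-0.8903), TBXAS1 (4.69), CDH11 (68.62), PCDH1 (0.2985), IL1B (1623), CXCL8 (3080), CXCL1 (31.51), CXCL2 (26.52), CXCL3 (78.79), MMP1 (8398), FBLN2 (3.926) and HMGA1 (-232.2). Of these, ANKRD1, LMOD1, CDH11, CXCL2, CXCL3, MMP1, FBLN2 and HMGA1 passed with the turned sign (limma adjusted p under 0.05), and the others did not. Another 15 named genes kept the sign on the linear scale but lost the call. Among them were DCN, THBD, FOXQ1 and PDGFB (limma adjusted p = 0.539, 0.61, 0.553 and 0.0635). FBN2, not called, was -0.09559 with library sizes alone and -0.03012 to 0.06283 without single libraries, and CXCL8, not called, ran from -0.291 to 0.007335. Leaving out any of several libraries ended the calls of LMOD1 (adjusted p up to 0.129), SPC25 (0.0782), CDKN2C (0.11), CA9 (0.105), COX6C (0.0735), HEYL (0.0576), EPHA5 (0.115) and CXCL2 (0.0869), and leaving out OIS-shA1 replicate 6 that of NRXN3 (0.175). IL6 also passed with the replicate block, without a filter, with library sizes alone and without Grow replicate 1 or 4, Grow-shA1 replicate 4 or 8, or OIS-shA1 replicate 7. With library sizes alone 67.3% of OIS only, 51% of Grow only and 68.6% of opposite genes kept their class.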
